A study of Rattus norvegicus with 6 samples.

Results

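The genes described here encode voltage-gated calcium and sodium channels, TRP channels, polycystins, Piezo channels and the smaller HCN, ASIC and cyclic nucleotide-gated families, with their auxiliary subunits. They were chosen by the start of their gene symbol, and 56 of the 14607 genes listed for the series were found. The rule reads the symbol and no measured value. One of them, Trpc4ap, shares the start of its symbol with a TRP channel but encodes an associated protein that is not a channel. The paper listed only genes that had reads in every sample. A channel gene without reads in even a single sample could therefore not be found.

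RNA-Seq had been carried out on 3 samples of vascular smooth muscle cells (VSMCs) and 3 samples of mid-capillary pericytes (mcPCs) from the cortex of male Sprague-Dawley rats of 4 to 5 weeks. No transgene or treatment is named for the animals, and each sample pooled the cortices of several rats. There were 3 independent isolations, each giving both cell types from the same rats. The sample titles share the codes DN, DL and DK across the cell types. VSMCs had been dissociated from arterioles held back by a filter, depleted of CD31+ and CD11b+ cells and then sorted positively with a lectin. mcPCs were the cells of the filtrate left after removal of endothelial, microglial, astrocyte and oligodendrocyte lineage cells, so they were never selected for a marker of their own. The 2 groups therefore also differed in enzymes and in the direction of the sort, and cell type and preparation cannot be told apart.

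Smooth muscle of cerebral arterioles constricts when calcium enters through L-type voltage-gated channels. A channel of this kind is built from a pore subunit, a beta subunit that brings the pore to the plasma membrane and an alpha2delta subunit on its outer face. TRP channels and polycystins let cations in on receptor activation, stretch or a rise in calcium and thereby depolarise the membrane, T-type calcium channels open at more negative voltages than L-type ones, and Piezo channels open directly on membrane tension. Capillary pericytes are also known to carry calcium signals, while many sodium channel, gamma subunit and N-type or P/Q-type calcium channel genes are best known from neurons and glia.

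The table used here gives 1 mean per cell type for each gene, with no value per sample, so no SD, no test between the cell types and no p-value could be computed, and every level or number of reads below is such a mean over 3 samples. Levels are in TPM (transcript abundance corrected for length and scaled to the same total in every sample). The cell types were compared by the log2 ratio of mean normalized counts, mcPC over VSMC, with a pseudocount of 1, so a negative value means a higher level in VSMCs. Each ratio comes with a 95% counting interval, an exact binomial interval on the reads of both cell types without a pseudocount, which covers counting error only and not the spread between isolations. Differences are called by size alone, at 2-fold or 4-fold. Summed over genes, estimated reads came to 61978061 per VSMC sample and 47990230 per mcPC sample, and the channel genes had between 1.33 and 44971 reads per VSMC sample and between 3.33 and 11820 per mcPC sample.

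Listed markers of the 2 cell types were looked up first. They were chosen with earlier results of these data known, so they describe the samples and are no independent check. All 6 smooth muscle markers were at least 2-fold higher in VSMCs, with a summed level of 44814 TPM in VSMCs against 81.7 TPM in mcPCs. All 6 pericyte markers were at least 2-fold higher in mcPCs, with 1208 and 2962 TPM in sum. In the same data the paper describes Kcnj8 and Abcc9 as specific for mcPCs. It counts Pdgfrb as similarly expressed in both, like Cspg4 and Rgs5, which were not listed here. Pdgfrb had 614 TPM in VSMCs against 388 TPM in mcPCs, with a log2 ratio of 1.17. Red cell RNA was plentiful in mcPCs, where 14 listed erythrocyte genes held 54.9% of all TPM, against 0.728% in VSMCs. Since TPM sum to a fixed total, such a share lowers the TPM of every other gene in mcPCs, and the log2 ratio of mean TPM had a median of -1.72 over all genes, whereas the ratio of normalized counts had a median of 0.01. Markers of other cells were also higher in mcPCs, most of them at low levels. At least 2-fold higher there were 8 of 11 endothelial, 6 of 6 neuronal, 4 of 5 astrocyte and 6 of 7 oligodendrocyte lineage genes. So were 4 of 4 microglial and leukocyte genes and 3 of 4 fibroblast genes. Over all genes the share was 21.6%. It was 65.7% for genes under 0.8 TPM in VSMCs, a level at which most of these markers lay. Their summed levels in VSMCs and mcPCs were 536 and 228 TPM for the endothelial list, 3.32 and 24.4 TPM for the neuronal list, 14.2 and 20.1 TPM for astrocytes, 11.4 and 14.1 TPM for the oligodendrocyte lineage, 0.564 and 23.0 TPM for microglia and leukocytes, and 138 and 54.3 TPM for fibroblasts. The endothelial sum was mostly Esam, with 487 and 184 TPM, a gene that mural cells share. The defining markers Pecam1, Rbfox3, Syt1, Slc17a7, Aif1 and Itgam have no row under these symbols in the table, and other symbols were not searched. The table leaves out any gene without reads in even a single sample. In such bulk samples a smaller number of expressing cells and less RNA per cell cannot be told apart.

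Most of the channel genes called higher in mcPCs were rare in VSMCs. At least 2-fold higher in VSMCs were 10 of the 56 genes, or 17.9%, against 13.8% of all 14607 genes. At least 2-fold higher in mcPCs were 23, or 41.1%, against 21.6% of all genes, and the remaining 23 lay within 2-fold. At 4-fold the numbers were 6 for VSMCs and 14 for mcPCs, where all genes gave 5.64% and 12%. The counting interval lay wholly past 2-fold for all 10 of the former and for 19 of the latter 23. The median log2 ratio was 0.36 over the channel genes and 0.01 over all genes.

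The counts differed with the level of the genes, and since a level in 1 cell type also enters the ratio, the splits below are descriptions to be read beside all genes split in the same way. In VSMCs 28 channel genes had at least 0.8 TPM and 28 had less. That limit is the paper's own empirical cutoff against RNA of contaminating cells, and genes under it are absent from its final dataset. Among the former, 9 were at least 2-fold higher in VSMCs, which is 32.1% against 15.7% of all genes above that level, and 2 in mcPCs, which is 7.14% against 13.0%. Among the latter, 21 of 28 were at least 2-fold higher in mcPCs, which is 75% against 65.7% of all genes under that level, so the rare channel genes lay near the background of rare genes, and 1, Scn7a, in VSMCs, where rare genes gave 3.81%. Of the 18 channel genes with at least 10 TPM in VSMCs, 6 were at least 2-fold higher in VSMCs and none in mcPCs, where all genes at that level gave 18.5% and 6.32%. Split by the mcPC level instead, 24 channel genes had at least 0.8 TPM, and 5 of them were at least 2-fold higher in VSMCs and 5 in mcPCs, where all genes at that level gave 12% and 18.4%. Asic4, Cacnb4, Trpc6 and Cacna1g, all higher in VSMCs, fall out of that split, and Cacng4, Cacng7 and Trpa1, all higher in mcPCs, come into it.

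The direction of these counts rests on the scaling. The ratio of mean TPM as it stands gave 29 channel genes at least 2-fold higher in VSMCs and 6 in mcPCs, with 72.3% and 7.0% of all genes. These numbers also rest on the pseudocount of the TPM ratio, which draws rare genes inside 2-fold. By plain mean TPM, Cacna1b, Hcn4, Scn1a, Scn4b and Trpm1 were also past 2-fold towards mcPCs. Cacng6, Cnga4 and Pkd1l3 were also past it towards VSMCs. Counts scaled to the same total gave 14 and 18, with 28.8% and 15.5% of all genes. With TPM ratios taken relative to the median gene the numbers were 9 and 26, with 13.3% and 22.4% of all genes.

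**Figure D1:**
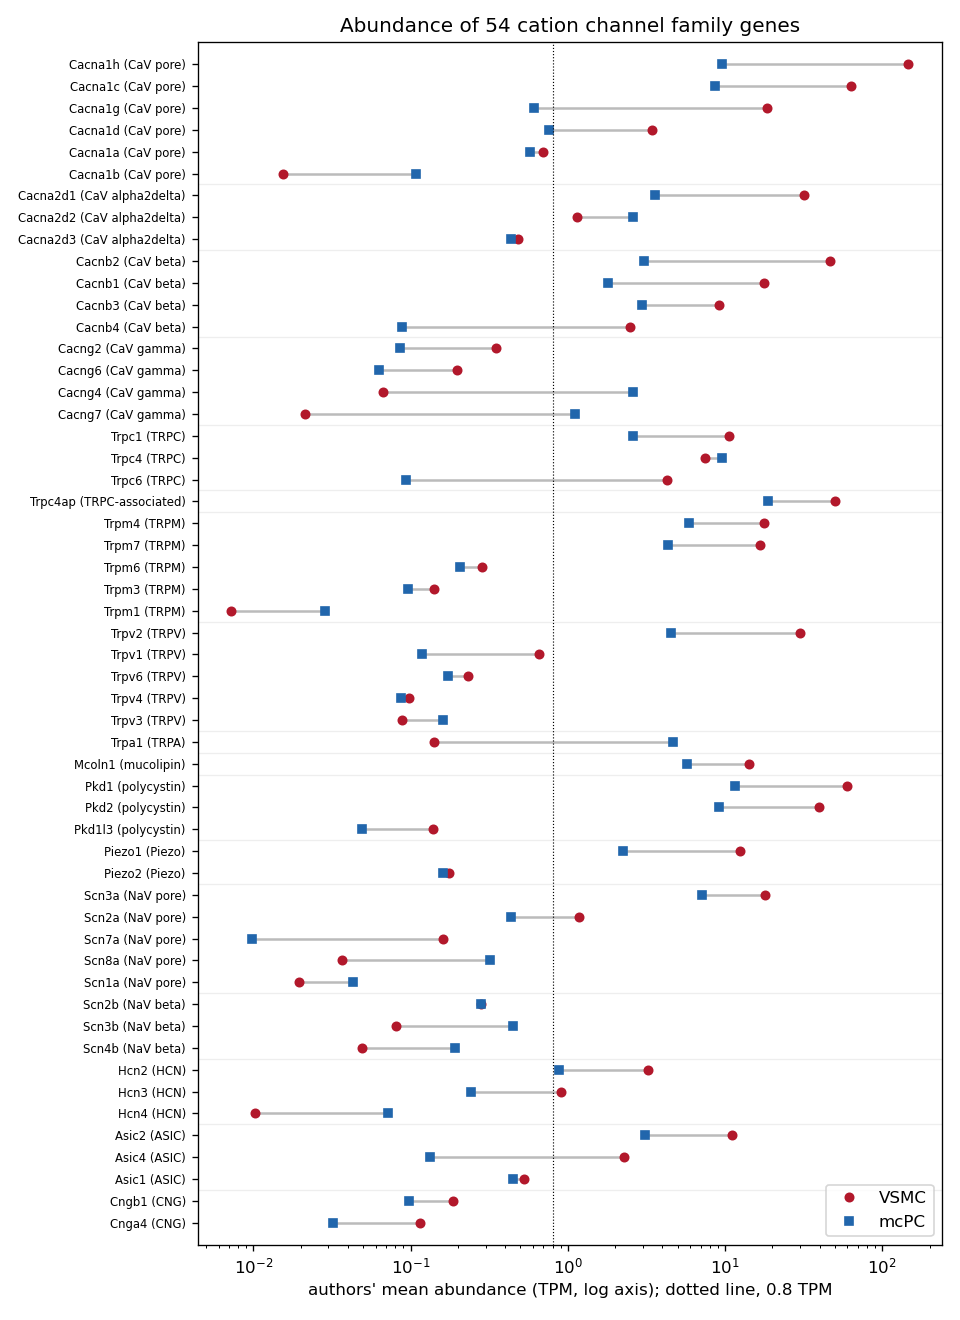
Mean abundance of 54 of the genes in TPM on a log axis, grouped by subfamily, with VSMCs as circles and mcPCs as squares; the dotted line marks 0.8 TPM. Cacna1h had the highest level in VSMCs with 146 TPM, and its level in mcPCs was 9.62 TPM.

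**Figure D2:**
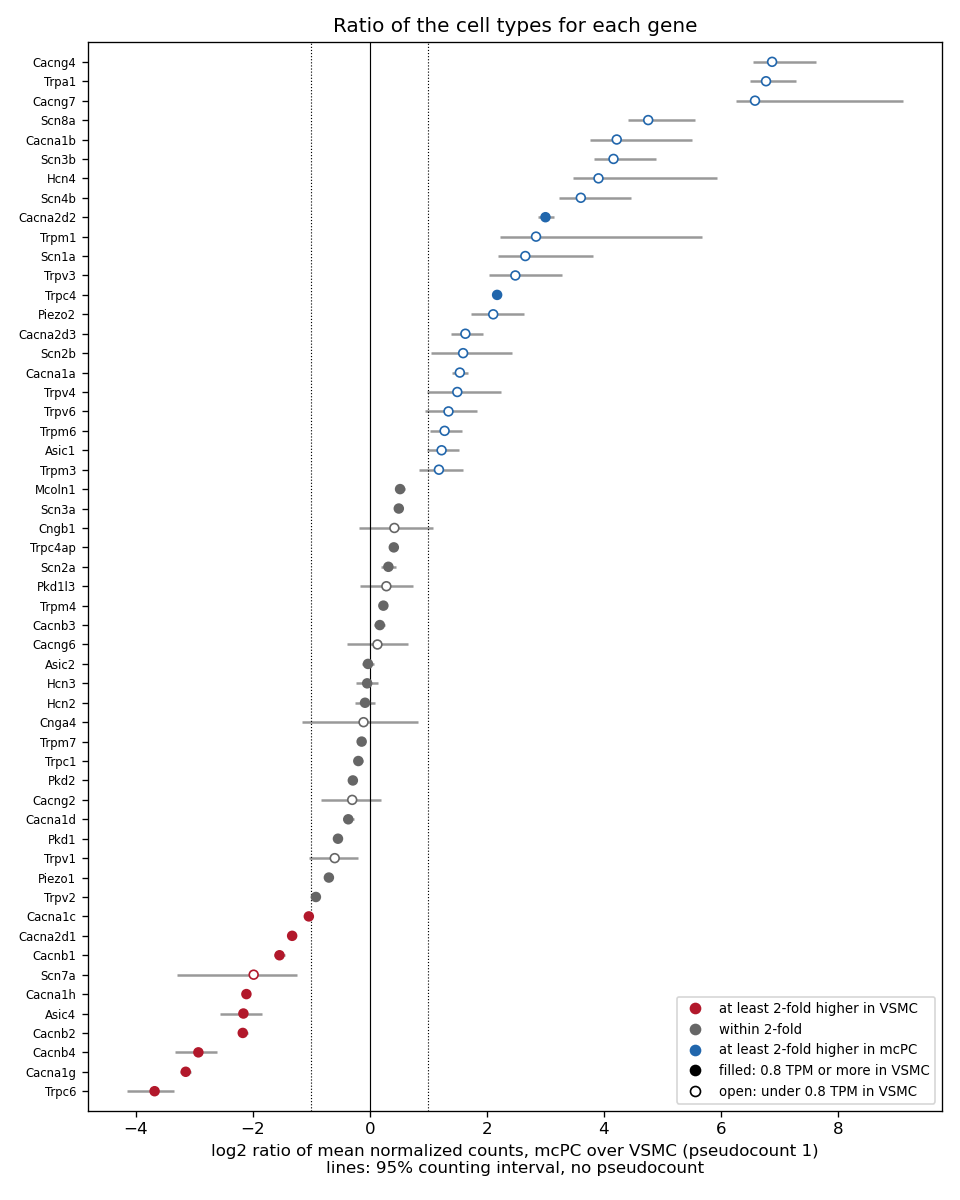
Log2 ratio of mean normalized counts, mcPC over VSMC, for the same 54 genes, with lines for the 95% counting interval and dotted lines at 2-fold; open points had under 0.8 TPM in VSMCs. The ratios run from -3.68 for Trpc6 to 6.88 for Cacng4, and the points at least 2-fold higher in mcPCs are open except for Cacna2d2 and Trpc4.

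Voltage-gated calcium channel pores gave the highest level of any channel subfamily in VSMCs, with a summed level of 232 TPM there and 20.3 TPM in mcPCs, and a log2 ratio of summed normalized counts of -1.71. Of the 6 pore genes 3 were at least 2-fold higher in VSMCs, 2 in mcPCs and 1 lay within 2-fold. Cacna1h, a T-type pore, had 146 TPM in VSMCs against 9.62 TPM in mcPCs, resting on 44971 and 5486 reads in each sample. It stood above 92.9% of all listed genes in VSMCs and above 74.9% in mcPCs, and its log2 ratio was -2.11 (counting interval -2.14 to -2.09), a 4.32-fold higher level in VSMCs. Cacna1g, the other T-type pore found, had 18.5 TPM in VSMCs against 0.614 TPM in mcPCs. Its log2 ratio of -3.15 (counting interval -3.25 to -3.06) was the lowest of the pores.

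Cacna1c, the main L-type pore of vascular smooth muscle, had 63.3 TPM in VSMCs against 8.65 TPM in mcPCs. Its log2 ratio of -1.05 (counting interval -1.07 to -1.02) lay just past 2-fold, and it was -0.97 with counts scaled without the erythrocyte genes. In normalized counts mcPCs held 48.4% of the VSMC level of Cacna1c, 23.1% of that of Cacna1h and 11.2% of that of Cacna1g. For the 6 smooth muscle markers the same shares ran from 0.306% for Myh11 and 0.393% for Acta2 to 2.49% for Des and 17.9% for Smtn, so that of Smtn lay between the T-type pores. Cacna1d, the other L-type pore found, had 3.46 and 0.754 TPM, with a log2 ratio of -0.37.

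Comparison within a cell type does not depend on the scaling between them. In VSMCs Cacna1h was 2.31 times as abundant as Cacna1c, and it made up 63.0% of the TPM of all listed pore genes against 27.2% for Cacna1c. In mcPCs the 2 were nearly level, at 1.11 times, with 47.3% and 42.6% of the pore TPM. The share of Cacna1g was 7.97% in VSMCs and 3.02% in mcPCs. The 2 pores higher in mcPCs were Cacna1a, of P/Q-type channels, and Cacna1b, of N-type channels, both known for transmitter release in neurons. Cacna1a had 0.698 TPM in VSMCs against 0.578 TPM in mcPCs with a log2 ratio of 1.54, which was -0.23 on mean TPM as it stands. Cacna1b had 0.0155 and 0.108 TPM, resting on 4.33 and 62.0 reads in each sample, and a log2 ratio of 4.22 (counting interval 3.76 to 5.50).

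None of the 4 beta subunit genes was at least 2-fold higher in mcPCs and 3 were in VSMCs. Cacnb2, the beta subunit best known from heart and vessels, had 46.8 TPM in VSMCs against 3.03 TPM in mcPCs, with a log2 ratio of -2.18 (counting interval -2.26 to -2.09). Cacnb1 had 17.7 and 1.80 TPM with a log2 ratio of -1.55, and Cacnb4 2.49 and 0.0884 TPM with a log2 ratio of -2.93. Cacnb3 differed little, with 9.19 and 2.96 TPM and a log2 ratio of 0.17 (counting interval 0.08 to 0.26). Within VSMCs Cacnb2 therefore stood 5.09 times above Cacnb3, and in mcPCs the 2 were level at 1.03 times.

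Among alpha2delta subunits the leading gene was the same in both cell types. Cacna2d1 had 31.8 TPM in VSMCs against 3.60 TPM in mcPCs, with a log2 ratio of -1.33 (counting interval -1.39 to -1.27). Cacna2d2 went the other way, with 1.15 TPM in VSMCs against 2.61 TPM in mcPCs and a log2 ratio of 3.0 (counting interval 2.88 to 3.14), and it was also higher in mcPCs on mean TPM as it stands. In VSMCs Cacna2d1 was 27.8 times as abundant as Cacna2d2 and made up 95.1% of the subfamily. In mcPCs it was 1.38 times as abundant, at 54.1% against 39.3%. Cacna2d3 had under 0.5 TPM in both cell types, with a log2 ratio of 1.63 that was -0.12 on mean TPM as it stands.

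The main L-type pore gene Cacna1c and the beta and alpha2delta genes with the highest TPM, Cacnb2 and Cacna2d1, were each more abundant in VSMCs. The 250 bases before their first listed start are shown for that reason. The sequences are from RefSeq on GRCr8, which is not the build of the deposited values, and they are written along the gene's strand with CCAAT and GGGCGG on either strand in capitals.
Cacna1c (GRCr8 chr4:154051749-154051998, minus strand): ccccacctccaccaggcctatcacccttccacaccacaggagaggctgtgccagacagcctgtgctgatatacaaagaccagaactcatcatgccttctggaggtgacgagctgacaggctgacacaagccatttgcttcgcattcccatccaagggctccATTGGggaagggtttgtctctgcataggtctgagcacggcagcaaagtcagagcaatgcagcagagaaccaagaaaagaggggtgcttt
Cacnb2 (GRCr8 chr17:82472965-82473214, plus strand): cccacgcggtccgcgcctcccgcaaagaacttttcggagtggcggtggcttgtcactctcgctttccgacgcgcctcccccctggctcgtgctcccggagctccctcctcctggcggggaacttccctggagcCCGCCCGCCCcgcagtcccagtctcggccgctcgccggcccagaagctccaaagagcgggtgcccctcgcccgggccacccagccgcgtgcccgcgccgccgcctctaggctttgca
Cacna2d1 (GRCr8 chr4:20330148-20330397, minus strand): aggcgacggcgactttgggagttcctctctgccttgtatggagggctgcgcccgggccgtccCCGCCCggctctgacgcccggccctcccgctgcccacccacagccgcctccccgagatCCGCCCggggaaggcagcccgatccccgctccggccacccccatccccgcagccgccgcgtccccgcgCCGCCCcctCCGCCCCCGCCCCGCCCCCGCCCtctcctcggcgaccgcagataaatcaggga
They had little in common in these letters. The window of Cacna1c holds 1 CCAAT and no GGGCGG and is 54.4% G and C, whereas those of Cacnb2 and Cacna2d1 hold 2 and 7 GGGCGG, overlapping matches included, no CCAAT, and 73.2% and 77.2% G and C. The median over all 27457 genes with such a window was 52.0%. Windows were matched by gene ID for 39 of the 56 genes. GGGCGG was found in 3 of the 5 matched genes at least 2-fold higher in VSMCs, in 8 of 16 higher in mcPCs, in 9 of the 18 others and in 32.4% of all windows. CCAAT was found in 1 of 5, 5 of 16 and 5 of 18, and in 34.3% of all windows. An exact CArG box, the element bound by serum response factor at many smooth muscle genes, was in none of the 39 and in 1.5% of all windows.

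Among subfamilies of more than 1 gene, gamma subunits had the highest ratio towards mcPCs, with a log2 ratio of summed normalized counts of 4.40, and several of them serve AMPA receptors at synapses rather than calcium channels. Their summed level was 0.635 TPM in VSMCs against 3.84 TPM in mcPCs. Cacng4 had 0.0668 TPM in VSMCs against 2.59 TPM in mcPCs, resting on 10 and 702 reads in each sample, with a log2 ratio of 6.88 (counting interval 6.54 to 7.63). Cacng7 had 0.0212 and 1.11 TPM, resting on 1.67 and 149 reads in each sample. Its log2 ratio was 6.58 with the pseudocount (counting interval 6.25 to 9.12, on 5 reads over the 3 VSMC samples). Cacng2 and Cacng6 lay within 2-fold at under 0.4 TPM in both cell types. Genes of the neural lineages moved the same way, with log2 ratios of 6.54 for Dcx, 8.53 for Tubb3 and 5.85 for Olig2, which had 2.15, 15.7 and 0.805 TPM in mcPCs, and their part in the gamma subunit values was not tested.

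**Figure D3:**
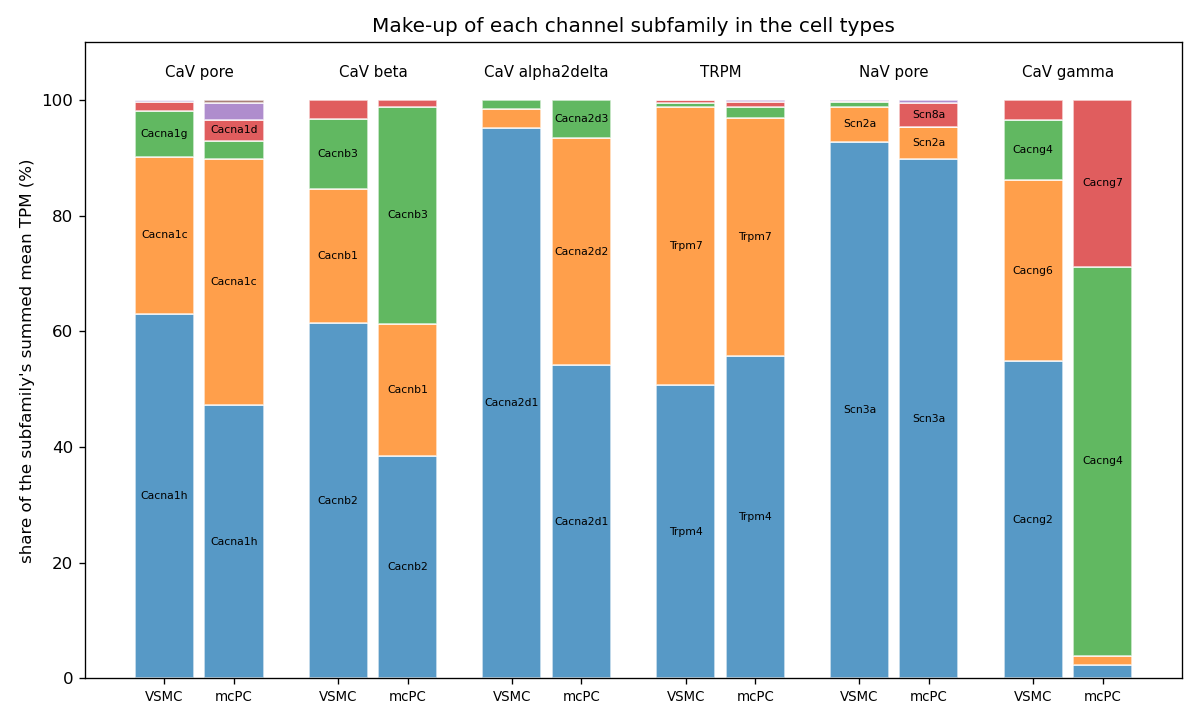
Share of each gene in the summed mean TPM of its subfamily, in percent, for 6 subfamilies, in VSMCs and mcPCs side by side; each coloured segment is a gene and names are printed on segments above 3.5%. Cacna2d2 holds 3.42% of the alpha2delta TPM in VSMCs and 39.3% in mcPCs, and Scn3a holds 92.8% and 89.8% of the sodium channel pore TPM.

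Trpc6 and Trpc4, TRPC channels opened downstream of receptors coupled to phospholipase C, differed between the cell types in opposite directions. Trpc6, gated by diacylglycerol and linked to pressure-induced constriction, had the lowest ratio of all 56 genes in normalized counts. Cacna1g was lower on mean TPM with the pseudocount of 0.1, at -4.70 against -4.50. That pseudocount is above the mcPC level of Trpc6. Without it mcPCs held 2.18% of the VSMC TPM of Trpc6 and 3.32% of that of Cacna1g. Trpc6 had 4.28 TPM in VSMCs against 0.0931 TPM in mcPCs, resting on 452 and 18.0 reads in each sample, with a log2 ratio of -3.68 (counting interval -4.16 to -3.34), or 12.8-fold.

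Trpc4 showed the opposite pattern at a higher level. It had 7.43 TPM in VSMCs against 9.57 TPM in mcPCs, resting on 864 and 2047 reads in each sample, and its log2 ratio was 2.17 (counting interval 2.11 to 2.24). On mean TPM as it stands the log2 ratio was 0.36, in the same direction but within 2-fold. In the abundance order it stood above 39.8% of all listed genes in VSMCs and above 74.8% in mcPCs. Trpc1, often a partner of Trpc4 in mixed channels, had 10.6 and 2.59 TPM with a log2 ratio of -0.20. Within VSMCs Trpc4 was 1.74 times as abundant as Trpc6, and within mcPCs 103 times. Trpc1 was 1.42 times as abundant as Trpc4 in VSMCs and 0.271 times in mcPCs. Trpc4ap, the associated protein, had 50.0 and 18.9 TPM and a log2 ratio of 0.41.

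The abundant TRPM channels lay within 2-fold. Trpm4, a calcium-activated channel that passes monovalent cations and depolarises arteriolar muscle, had 17.7 TPM in VSMCs against 5.93 TPM in mcPCs, with a log2 ratio of 0.23 (counting interval 0.18 to 0.28). Trpm7, a channel joined to a kinase that carries magnesium, had 16.8 and 4.37 TPM with a log2 ratio of -0.14. They held nearly all of the TRPM level in each cell type, with 50.7% and 48.1% in VSMCs and 55.8% and 41.1% in mcPCs. The other 3, Trpm1, Trpm3 and Trpm6, were at least 2-fold higher in mcPCs and had under 0.3 TPM in both cell types. For Trpm1 the VSMC level rested on 4 reads over the 3 samples.

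TRPV channels came down to Trpv2, with 29.8 TPM in VSMCs against 4.55 TPM in mcPCs. Its log2 ratio was -0.92 (counting interval -0.99 to -0.86), just under 2-fold. The other 4 members, Trpv1, Trpv3, Trpv4 and Trpv6, had under 0.7 TPM in either cell type. Trpv1 had a log2 ratio of -0.60, and those of Trpv3, Trpv4 and Trpv6 were 2.49, 1.49 and 1.34, the last 2 below 0 on mean TPM as it stands. Trpv4, a much studied channel of vessels, had 0.0984 and 0.0866 TPM, resting on 11.3 and 20.3 reads in each sample.

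Trpa1, a channel opened by electrophilic irritants, was rare in VSMCs and well measured in mcPCs. Being under the paper's cutoff in VSMCs, it is absent from the final dataset of the paper. It had 0.14 TPM in VSMCs against 4.64 TPM in mcPCs, resting on 19.0 and 1103 reads in each sample. Its log2 ratio was 6.77 (counting interval 6.5 to 7.28), or 109-fold, and it was 4.30 on mean TPM as it stands, so the direction held under each scaling tried. In the abundance order it stood above 5.02% of the listed genes in VSMCs and above 56.7% in mcPCs. Slc1a3, an astrocyte gene, moved with it, with 0.306 TPM in VSMCs against 12.7 TPM in mcPCs, as did the endothelial gene Cldn5 with 0.643 and 15.4 TPM and the leukocyte gene Ptprc with 0.0659 and 15.1 TPM, each having the highest ratio of its list. Of the endothelial list, Flt1 and Ocln went the other way, with log2 ratios of -0.78 and -0.33, and of the astrocyte list Aldoc lay within 2-fold at 0.16. The part of these cells in the Trpa1 value was not tested.

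Mcoln1, which releases calcium from lysosomes, had 14.1 TPM in VSMCs against 5.75 TPM in mcPCs, with a log2 ratio of 0.51 (counting interval 0.44 to 0.59).

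**Figure D4:**
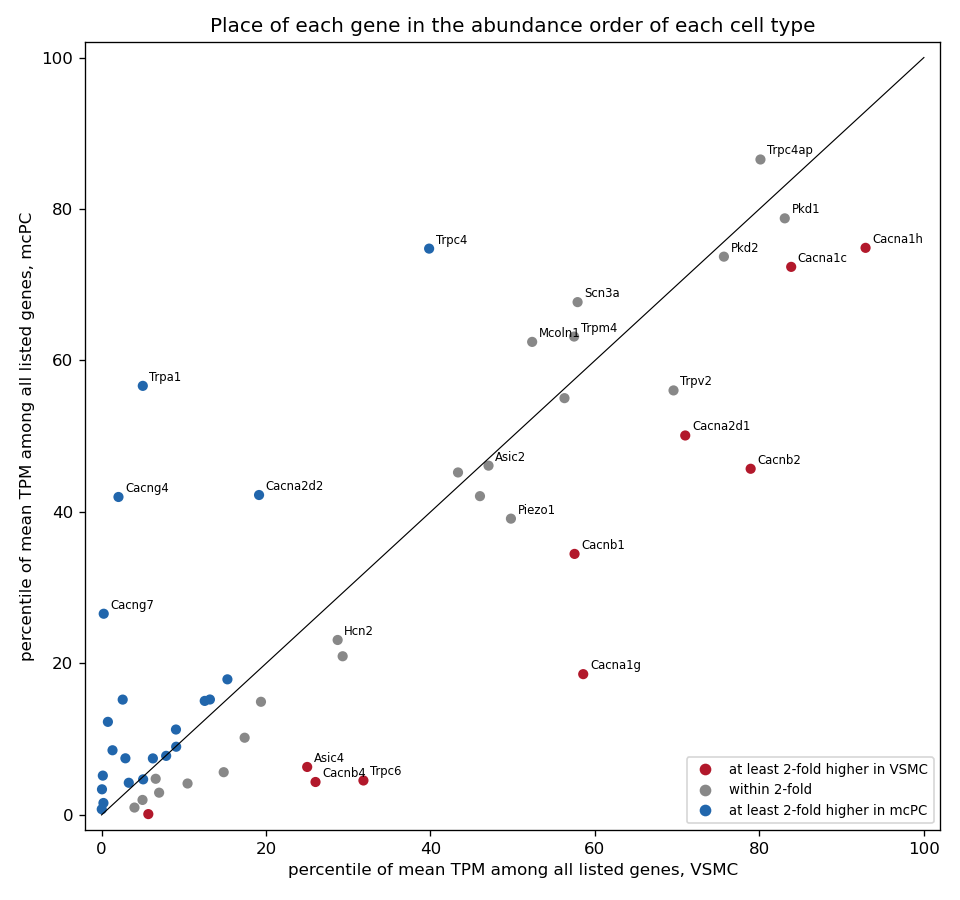
Percentile of mean TPM among all 14607 listed genes for the same 54 genes in VSMCs (horizontal) and mcPCs (vertical), with the line of equal place; colours mark genes at least 2-fold higher in VSMCs or mcPCs in normalized counts. Pkd1, Pkd2 and Trpm4 lie near the line, Cacna1g and Cacnb2 far under it, and Trpa1, Cacng4 and Trpc4 far above it.

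Polycystins and Piezo channels, both linked to sensing of stretch, differed by less than 2-fold in their abundant members. Pkd1, the large membrane protein that pairs with the channel encoded by Pkd2, had 60.1 TPM in VSMCs against 11.6 TPM in mcPCs, with a log2 ratio of -0.55 (counting interval -0.56 to -0.53). Pkd2 had 39.6 and 9.17 TPM with a log2 ratio of -0.29 (counting interval -0.33 to -0.26). Their proportion was alike in the cell types, as Pkd1 was 1.52 times as abundant as Pkd2 in VSMCs and 1.27 times in mcPCs. Pkd1l3 had under 0.2 TPM in both.

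Piezo1 had 12.5 TPM in VSMCs against 2.26 TPM in mcPCs, resting on 4045 and 1331 reads in each sample. Its log2 ratio was -0.70 (counting interval -0.75 to -0.65). Piezo1 is also a channel of red cells, and the erythrocyte list was past 2-fold in 14 of 14 genes towards mcPCs, against 21.6% of all genes. The part of red cells in the Piezo1 value was not tested. Piezo2 had 0.176 and 0.16 TPM. Its log2 ratio of 2.11 was -0.08 on mean TPM as it stands, and Piezo1 remained 71.4 times as abundant as Piezo2 in VSMCs and 14.1 times in mcPCs.

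Voltage-gated sodium channels amounted to Scn3a in both cell types. This pore gene, best known from the developing brain, had 18.0 TPM in VSMCs against 7.12 TPM in mcPCs, resting on 4676 and 3510 reads in each sample. Its log2 ratio was 0.49 (counting interval 0.46 to 0.53), and it made up 92.8% and 89.8% of the pore TPM. Scn2a followed with 1.18 and 0.432 TPM and a log2 ratio of 0.31. Scn8a, the main pore of adult axons, had 0.0366 and 0.32 TPM, resting on 9.67 and 150 reads in each sample, with a log2 ratio of 4.76 (counting interval 4.41 to 5.55). Scn1a had under 0.05 TPM in both cell types with a log2 ratio of 2.66. Scn7a, which encodes a sodium-sensing relative, was the only sodium channel gene at least 2-fold higher in VSMCs, at 0.16 and 0.0098 TPM and a log2 ratio of -1.99. That value rests on 10 reads over the 3 mcPC samples, and it was 0.47 on TPM relative to the median gene.

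The sodium channel beta subunits Scn2b, Scn3b and Scn4b were at least 2-fold higher in mcPCs and had under 0.5 TPM in both cell types. Scn3b had 0.0805 TPM in VSMCs against 0.445 TPM in mcPCs with a log2 ratio of 4.16, and Scn4b had 0.0491 and 0.191 TPM with a log2 ratio of 3.60. For Scn2b the log2 ratio of 1.59 was -0.0048 on mean TPM as it stands. The neuronal list moved with these genes, with all 6 of its listed genes at least 2-fold higher in mcPCs and log2 ratios between 1.19 and 8.53, and its part in them was not tested.

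Of the pacemaker, acid-sensing and cyclic nucleotide-gated genes only Asic2 and Hcn2 reached 0.8 TPM in both cell types. Asic2 had 11.1 TPM in VSMCs against 3.08 TPM in mcPCs, with a log2 ratio of -0.03 (counting interval -0.14 to 0.08). Asic4, whose product gives no known acid-gated current of its own, had 2.27 and 0.133 TPM with a log2 ratio of -2.16 (counting interval -2.56 to -1.85). Hcn2 had 3.26 and 0.877 TPM and a log2 ratio of -0.08, with a counting interval of -0.25 to 0.08. Hcn3 had 0.906 and 0.242 TPM and a log2 ratio of -0.05, and Asic1 0.53 and 0.445 TPM with a log2 ratio of 1.22 that was -0.21 on mean TPM as it stands. Hcn4, the sinus node pacemaker gene, had 0.0102 and 0.0713 TPM on 2.33 and 28.7 reads per sample, with a log2 ratio of 3.91 (counting interval 3.47 to 5.94). Cnga4 and Cngb1 had under 0.2 TPM in both.

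A further 30 genes of proteins that work with these channels were looked up, and 25 have a row. Of these, 3 were at least 2-fold higher in VSMCs and 12 in mcPCs, with a median log2 ratio of 0.84, where all genes gave 13.8% and 21.6%. Of the partner genes 9 had under 0.8 TPM in VSMCs, and 7 of these were among the 12, where all genes under that level gave 65.7%. Among regulators of voltage-gated calcium channels, Gem, a small GTPase that inhibits the channels, had 24.3 TPM in VSMCs against 1.37 TPM in mcPCs with a log2 ratio of -2.39. Its relatives Rrad, with 192 and 29.5 TPM, and Rem1, with 112 and 51.9 TPM, lay within 2-fold at log2 ratios of -0.88 and 0.72. Rem2, of the same family, was rare, with 0.0867 and 0.392 TPM, and its log2 ratio was 3.78. Stac2, an adaptor of L-type channels, had 5.36 and 0.274 TPM and a log2 ratio of -2.45. For store-operated calcium entry, in which the store sensors Stim1 and Stim2 open Orai channels, the members were split. Stim1 had 126 and 21.3 TPM with a log2 ratio of -0.73, and Stim2 had 6.20 and 6.45 TPM with a log2 ratio of 1.87. Orai1, Orai2 and Orai3 had log2 ratios of 1.06, 2.94 and -0.35. Orai1 had 14.7 TPM in VSMCs against 8.65 TPM in mcPCs, so its log2 ratio was -0.76 on mean TPM as it stands. Orai2 had 1.25 and 2.84 TPM, and Orai3 22.8 and 5.06 TPM. The lysosomal cation channel genes Tpcn1 and Tpcn2 had 117 and 15.9 TPM in VSMCs and log2 ratios of 0.47 and -1.29. All 4 sodium channel partners and both listed genes of the sodium leak channel complex were at least 2-fold higher in mcPCs in normalized counts. They had at most 2.50 TPM in either cell type, reached by Fgf11 in VSMCs. The log2 ratios of Fgf11 and Ank3, 1.75 and 1.95, were -0.07 and -0.02 on mean TPM as it stands.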

How the data were processed

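Messenger RNA of 6 samples, 3 of VSMCs and 3 of mcPCs, was sequenced on libraries run 4 times each. Reads were trimmed and filtered by the authors with Eoulsan, and abundances and counts were estimated with Salmon 0.8.0 on the cDNA set of Rnor_6.0, summed per gene with tximport and normalized with DESeq2. The deposited table holds the authors' mean TPM, mean estimated counts, mean effective lengths and mean normalized counts (a signal, counts divided by normalization factors) of each cell type. Each cell type had 12 runs, and 69.8% (VSMC) and 71.5% (mcPC) of the deposited estimated counts came out whole within 0.01 reads when multiplied by that number. They were therefore read as averages over runs and multiplied by 4 for reads per sample. The table also gives the authors' fold changes with standard errors and p-values of their comparison, which were not used. The table used here gives no counts per sample. The edgeR test planned for them was therefore not run, nor a block by isolation or a fit without each sample.

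Log2 ratios, counting intervals (Clopper-Pearson on the summed reads, scaled by each gene's normalization) and percentiles of TPM were computed over the whole table, and subfamily shares among the members. Only the ratios and intervals were checked on simulated data, which held counting error alone and no normalization factors or spread between samples. Ratios of TPM took a pseudocount of 0.1. Named are the 12 highest genes by TPM in each cell type, the 10 lowest and 10 highest ratios with at least 10 reads per sample in either cell type, the leading gene of each subfamily, and any gene where a count was 5 or fewer. The counts cover all 56 members, of which 2 are not reported here by name. Members, marker lists and partner lists were chosen with earlier results of these data known. Markers were matched by symbol and promoter windows by gene ID, taking the first listed start. The 250 bases before the start were searched for 3 short motifs on both strands. Alternatives were other scalings, pseudocounts of 10 and 0, a filter at 0.8 TPM and a 4-fold limit. Scripts ran in Python 3.11.15 with scipy 1.17.1, pandas 2.3.3, numpy 2.4.6 and matplotlib 3.10.9.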

Additional observations from a re-analysis of the deposited data

How the results depend on the processing

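Precision is limited by the means, which hide the spread over 3 samples, and by few reads for the rare genes. No paired analysis was possible because the columns hold means of each cell type, and for the same reason no replicate was left out in turn. Of the 33 channel genes past 2-fold, 33 stayed past it in the same direction without a pseudocount, 32 with counts scaled without erythrocyte genes, 32 with TPM relative to the median gene, 30 with a pseudocount of 10, 28 with counts scaled to the same total and 16 with TPM as it stands. The last number is lowered by the pseudocount of the TPM ratio. Cacna1b, Hcn4, Scn1a, Scn4b and Trpm1 fell within 2-fold on that scale only because of it.

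The median log2 ratio of 0.36 was -1.25 with TPM as it stands and -0.12 with counts scaled to the same total, on scales whose median over all genes was -1.72 and -0.55. The 10 genes higher in VSMCs became 29 with TPM as it stands and 6 at 4-fold. The 23 genes higher in mcPCs became 6 with TPM as it stands, 2 with at least 0.8 TPM in VSMCs, 5 with at least 0.8 TPM in either cell type and 14 at 4-fold. The numbers with TPM as it stands reflect the pseudocount of 0.1 as well as the scaling. With at least 0.8 TPM in mcPCs, a filter added after the data were seen, the numbers were 5 and 5. With TPM as it stands the sign turned, among the channel genes past 2-fold named here, for Asic1 (-0.21), Cacna1a (-0.23), Cacna2d3 (-0.12), Piezo2 (-0.0811), Scn2b (-0.0048), Trpm3 (-0.29), Trpm6 (-0.32), Trpv4 (-0.0882) and Trpv6 (-0.28). With TPM relative to the median gene it turned for Scn7a (0.47), where the pseudocount of 0.1 is above the mcPC level. The partner genes higher in VSMCs were 11 in place of 3 with TPM as it stands and 6 with counts scaled to the same total. Those higher in mcPCs were 7 in place of 12 with TPM as it stands and 11 with counts scaled to the same total. Both comparisons were added after the data were seen.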
